A study of Bos indicus and Bos taurus with 17 samples.

Results

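Cells captured from milk as epithelial cells were compared between Jersey and Kashmiri cattle late in lactation, on day 250 in milk (D250). The comparison ran across all genes and by function. The genes compared were those with a name and an abundance of at least 1 FPKM (sequenced fragments scaled to transcript length and to library size) in either breed. There were 11642 such genes among the 21631 distinct names of the table, and 11589 of them had a value above 0 in both breeds and so a ratio. The Jersey group held 3 samples of Jersey cows, a taurine dairy breed, all labelled as being in lactation number 2. The Kashmiri group held 3 samples of Kashmiri cattle, a local breed labelled as Bos indicus, of which 2 were in lactation number 3 and 1 in lactation number 2. Neither group was labelled with a treatment, and all 6 samples carried the same calendar month. Cells were taken from milk with magnetic beads that carried an antibody to keratin 18, so that the cell type is defined by this capture, and polyadenylated RNA was sequenced. The table held 1 value per breed and day for all samples together. No spread between cows, no error, no test and no depth per value could be computed, and a single cow can set any of the values below. The study's methods put all cows in the same lactation, which differs from these labels. Breed and cow cannot be told apart, nor can lactation number if the labels hold.

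Milk contains epithelial cells shed from the secretory alveoli and leukocytes that enter from the blood. The epithelial cells make the milk proteins, lactose and fat, and they are joined by tight junctions that seal the alveolus. Neutrophils, macrophages and lymphocytes defend the gland, and the mediators of that defence are the interleukin 1 and interleukin 6 families, chemokines and the transcription factors NF-kB, AP-1 and STAT3. As lactation advances toward drying off, the secretory tissue regresses and leukocytes become a larger part of the cells in milk.

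Lists of neutrophil, cytokine, NF-kB and AP-1 genes held mostly higher genes in Jersey, whereas lists of epithelial identity, tight junctions and lymphocytes held lower genes. The deposited FPKM summed to 533249 in Kashmiri and 900667 in Jersey, a ratio of 1.69. Log2 ratios below are Jersey over Kashmiri as deposited, and scaling each breed to the same sum lowers every one of them by 0.76. A gene is called higher or lower in Jersey only where it differed at least 4-fold in the same direction both as deposited and after that rescaling, and these words are kept for such genes. By this rule 1044 genes were higher in Jersey (9.01%) and 504 were lower (4.35%). As deposited alone the split was 1607 higher and 504 lower, and rescaled alone it was 1044 higher and 1552 lower. The median log2 ratio of all 11589 genes was -0.13 as deposited and -0.88 after rescaling, and the middle 50% lay between -0.83 and 1.03. With 1 FPKM added to both values, which shrinks the ratios of genes near 1 FPKM, 767 genes were higher and 159 were lower. Where that ended the call of a gene given with its ratio below, this is stated beside it. No ratio is printed for a gene with a value under 0.1 FPKM in one breed. Within 2-fold under both scalings lay 3293 genes.

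The higher and the lower genes differed in abundance. Of the higher genes, 430 reached 100 FPKM in Jersey and 60 reached 1000 FPKM, and 507 differed at least 16-fold. Of the lower genes, 12 reached 100 FPKM in Kashmiri, 1 reached 1000 FPKM and 72 differed at least 16-fold. The median abundance in the breed with the greater value was 58.1 FPKM for the higher and 4.05 FPKM for the lower genes. The higher genes together made up 30.7% of the FPKM sum in Jersey and 2.5% in Kashmiri, and the lower genes 0.29% in Jersey and 2.79% in Kashmiri. The contrast between breeds follows from the rule that selected these genes. The shares are of deposited sums in which the caseins CSN1S1, CSN2 and CSN3 were listed at 0, so they are not shares of all RNA. The plot of the values in both breeds shows many higher genes in the abundant range, while 372 of the 504 lower genes were under 10 FPKM in both breeds. Of 1066 genes whose greater value lay between 100 and 1000 FPKM, 370 were higher (34.7%) and 11 were lower (1.03%), and of 5634 genes between 1 and 10 FPKM, 243 were higher (4.31%) and 372 were lower (6.6%).

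**Figure D1:**
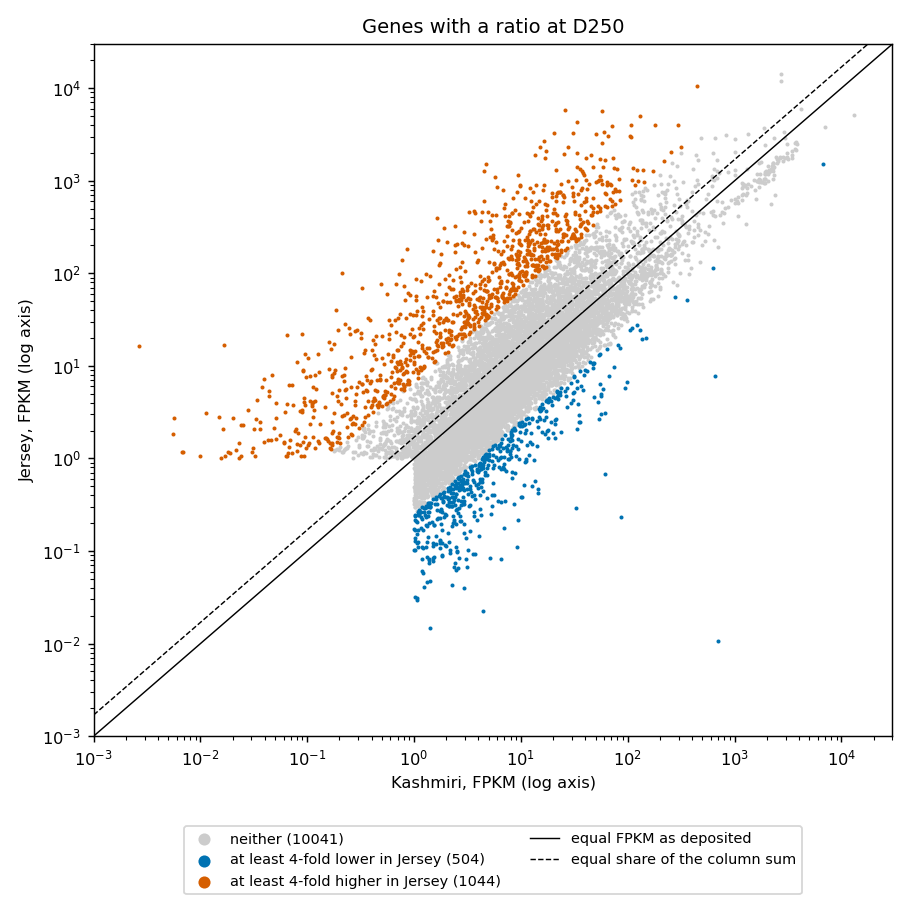
FPKM of each gene with a ratio at D250 in Kashmiri (horizontal, log axis) and Jersey (vertical, log axis), 1 deposited value per breed. Orange points are the 1044 genes higher and blue points the 504 genes lower in Jersey, and the dashed line marks an equal share of each breed's FPKM sum.

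Epithelial markers had smaller values in Jersey. Of 21 listed, 20 were found in the table, and of 19 measured genes of epithelial identity, 5 were lower, none was higher and the median log2 ratio was -1.36, against -0.13 for all genes. ELF3, an epithelial transcription factor, was 10.6 FPKM in Kashmiri and 2.33 FPKM in Jersey cattle (log2 ratio -2.19, and -1.80 with 1 FPKM added). With 1 FPKM added to all values 1 of the 19 was lower. KRT19, KRT18 and ELF5, the transcription factor of the secretory alveolus, did not reach 4-fold. KRT19 was 1319 FPKM in Kashmiri and 835 FPKM in Jersey cattle (-0.66) and ELF5 was 770.3 FPKM in Kashmiri and 349 FPKM in Jersey cattle (-1.14). KRT18, the antigen used to capture the cells, was 11.5 FPKM in Kashmiri and 4.51 FPKM in Jersey cattle (-1.36). CD3E, a T cell gene described below, had a greater FPKM than KRT18 in both breeds.

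Leukocyte markers were present in both breeds and split by cell type. The paper checked captured cells of day 90 by quantitative PCR against milk cells before capture. It reports more KRT18 and CSN2 and less LSP1, HBA and CD18, and proposes minimal contamination by other cell types. That check was relative and was not made at D250. Of 25 listed neutrophil markers 17 were found, and of 16 measured at 1 FPKM or more 13 were higher in Jersey and none was lower, with a median log2 ratio of 4.68. NLRP12, a regulator of myeloid cells, was 0.209 FPKM in Kashmiri and 100.4 FPKM in Jersey cattle (8.91). With 1 FPKM added its log2 ratio was 6.39, and it was still called. MMP25, a membrane-bound metalloproteinase of neutrophils, was 4.35 FPKM in Kashmiri and 464 FPKM in Jersey cattle (6.74). S100A12, a calgranulin of neutrophil cytoplasm, was 294 FPKM in Kashmiri and 4014 FPKM in Jersey cattle (3.77). The values of ITGAM (22.5 and 127 FPKM), MMP9 (2.86 and 14.8 FPKM) and ALPL (12.4 and 26.3 FPKM in Kashmiri and Jersey) were not called. The summed FPKM of the neutrophil list was 688 in Kashmiri and 15772 in Jersey. That of the epithelial identity list was 2895 in Kashmiri and 1605 in Jersey. In RNA from a mixture of cells, fewer cells of a type and less RNA per cell cannot be told apart. None of the measured neutrophil, macrophage or lymphocyte markers was listed at 0 in either breed.

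Macrophage markers had ratios on both sides of 0. Of 15 measured, 2 were higher and none was lower, and the median log2 ratio was -0.72. Over all genes 9.01% were higher and 4.35% were lower. CD14, the lipopolysaccharide coreceptor, was 68.3 FPKM in Kashmiri and 636 FPKM in Jersey cattle (3.22). The other higher entry was ADGRE1, which the table joins with VAV1, so its values of 13.9 and 909 FPKM belong to more than 1 gene. APOE, an apolipoprotein of foam cells and tissue macrophages, was 1574 FPKM in Kashmiri and 639.9 FPKM in Jersey cattle (-1.30), and GPNMB was 137 FPKM in Kashmiri and 59.7 FPKM in Jersey cattle (-1.20). The summed FPKM of the list was 2328 in Kashmiri and 3529 in Jersey. These sums include the joined ADGRE1 entry with its 13.9 and 909 FPKM.

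Lymphocyte markers had smaller values in Jersey with 1 exception. Of 19 measured T and NK cell markers, 7 were lower, 1 was higher and the median log2 ratio was -1.87. CD3E, a chain of the T cell receptor complex, was 135 FPKM in Kashmiri and 19.5 FPKM in Jersey cattle (-2.79). KLRK1, the activating receptor NKG2D, was 9.57 FPKM in Kashmiri and 0.986 FPKM in Jersey cattle (-3.28). The exception was NCR1, the NK cell receptor NKp46, which was 1.51 FPKM in Kashmiri and 56.3 FPKM in Jersey cattle (5.22). Of 10 measured B and plasma cell markers, 3 were lower and none was higher, with a median of -1.53. MS4A1, which encodes CD20, was 6.72 FPKM in Kashmiri and 1.29 FPKM in Jersey cattle (-2.38, and -1.75 with 1 FPKM added). With 1 FPKM added, 5 of the T and NK cell and none of the B and plasma cell markers were lower. The summed FPKM of T and NK cell markers was 529 in Kashmiri and 194 in Jersey, and that of B and plasma cell markers 38 and 12. Of 8 red blood cell genes 5 were found, and none of those reached 1 FPKM in either breed at D250.

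**Figure D2:**
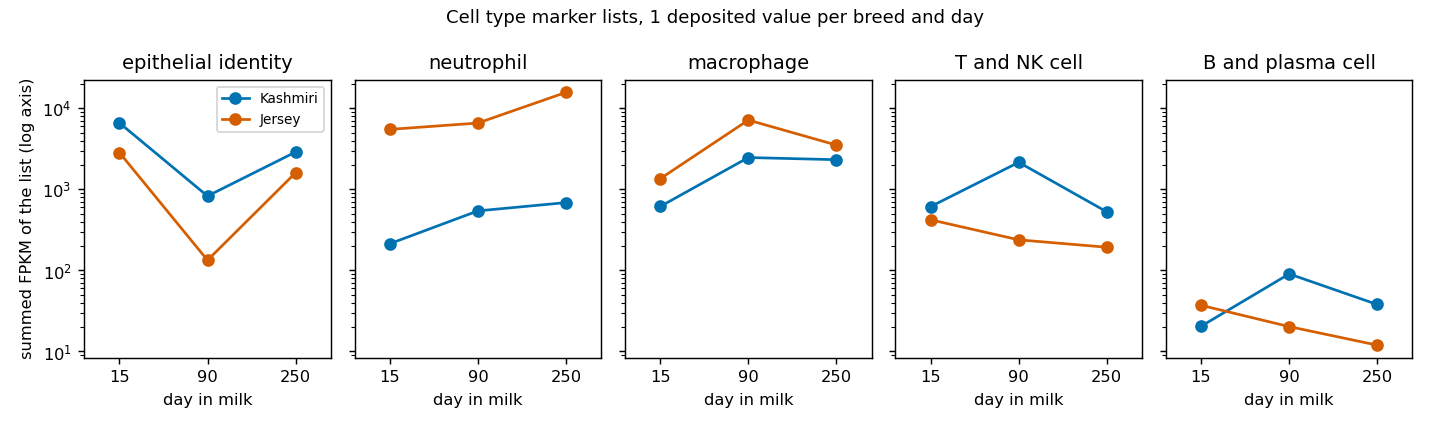
Summed FPKM (log axis) of 5 cell type marker lists by day in milk in Kashmiri (blue) and Jersey (orange), 1 deposited value per breed and day with no error available. At D250 the neutrophil sum was 688 in Kashmiri and 15772 in Jersey. The epithelial, T and NK cell and B and plasma cell sums were greater in Kashmiri at D250. The macrophage sums include the entry that joins ADGRE1 with VAV1.

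The largest ratios exceeded 100-fold. Of all gene symbols with at least 10 FPKM in one breed and 1 FPKM in the other, PTX3, a pentraxin that binds microbes, had the largest ratio, with 4.66 FPKM in Kashmiri and 1506 FPKM in Jersey cattle (323-fold, log2 ratio 8.33). GPR84, a receptor for medium-chain fatty acids on myeloid cells, was 4.54 FPKM in Kashmiri and 1287 FPKM in Jersey cattle (284-fold). STEAP4, a metalloreductase of the cell membrane, was 1.64 FPKM in Kashmiri and 391 FPKM in Jersey cattle (238-fold). G0S2, an inhibitor of the triglyceride lipase PNPLA2, was 25.9 FPKM in Kashmiri and 5758 FPKM in Jersey cattle (222-fold) and the most abundant of the 15. IL1B, the secreted interleukin 1 beta, was 20.5 FPKM in Kashmiri and 3290.1 FPKM in Jersey cattle (160.5-fold), and MEFV, the inflammasome protein pyrin, was 17 FPKM in Kashmiri and 2076 FPKM in Jersey cattle (122-fold). NOS2, the inducible nitric oxide synthase, was 2.43 FPKM in Kashmiri and 324 FPKM in Jersey cattle (133-fold). TCN1, a vitamin B12 binding protein of neutrophil granules, was 4.54 FPKM in Kashmiri and 603 FPKM in Jersey cattle (133-fold), and THBD, thrombomodulin, was 1.67 FPKM in Kashmiri and 227 FPKM in Jersey cattle (136-fold). The remaining 6 were the entry that joins DIRAS3 with WLS, BATF3, AMPD3, THEMIS2, OSM and SLCO4A1, with log2 ratios from 6.92 for SLCO4A1 to 7.59 for the joined entry.

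The smallest ratios were less extreme and lay at lower abundance. TPT1, a translationally controlled protein whose gene has many processed copies in mammalian genomes, was 56.6 FPKM in Kashmiri and 3.05 FPKM in Jersey cattle (-4.21), and how reads were divided among such copies is not known. RRAD, a small GTPase, was 94.3 FPKM in Kashmiri and 5.74 FPKM in Jersey cattle (-4.04). CTSW, a cathepsin of cytotoxic lymphocytes, was 98.4 FPKM in Kashmiri and 6.63 FPKM in Jersey cattle (-3.89), beside the low T and NK cell markers. CYR61, a matricellular protein, was 35.3 FPKM in Kashmiri and 2.49 FPKM in Jersey cattle (-3.83), and BGN, the matrix proteoglycan biglycan, was 34.6 FPKM in Kashmiri and 2.93 FPKM in Jersey cattle (-3.56). S100A14, an epithelial member of the S100 family, was 23.9 FPKM in Kashmiri and 1.95 FPKM in Jersey cattle (-3.61). RARB, the retinoic acid receptor beta, was 12 FPKM in Kashmiri and 1.09 FPKM in Jersey cattle (-3.46), and SPRY2, an inhibitor of receptor tyrosine kinase signalling, was 19.9 FPKM in Kashmiri and 1.88 FPKM in Jersey cattle (-3.40). The others included OBFC1, C2orf80, NDRG4, a joined entry with DGCR8, LY6G6C and ALOX15, and none of the 15 exceeded 100 FPKM in either breed.

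**Figure D3:**
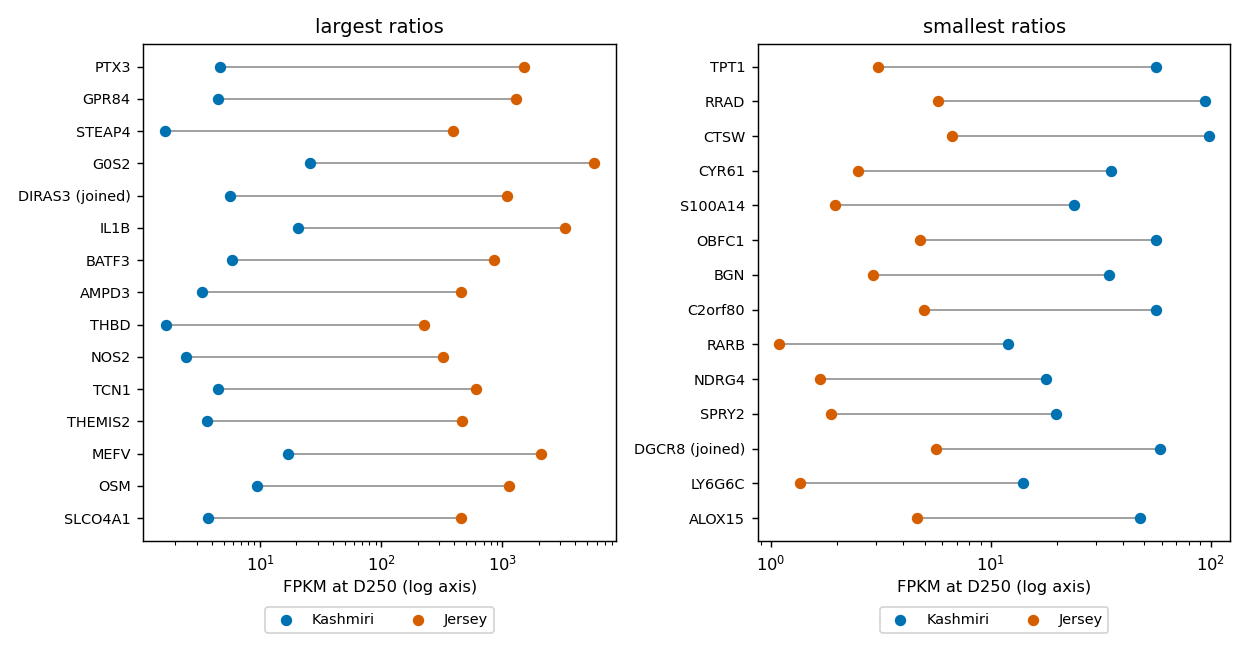
FPKM at D250 (log axis) of the 15 gene symbols with the largest Jersey over Kashmiri ratio and of 14 among the 15 with the smallest, among genes with at least 10 FPKM in one breed and 1 FPKM in the other, with Kashmiri in blue and Jersey in orange. The Jersey values of the left panel run up to 5758 FPKM (G0S2), whereas the Kashmiri values of the right panel stay under 100 FPKM.

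The most abundant genes of the breeds overlapped in part, and LALBA was among the 10 most abundant in both. In Kashmiri the greatest value was that of LALBA, the alpha-lactalbumin of lactose synthase, with 13031 FPKM in Kashmiri and 5140.1 FPKM in Jersey cattle (-1.34), followed by RPLP1, a ribosomal stalk protein, with 7042 FPKM in Kashmiri and 3775 FPKM in Jersey cattle (-0.90). The fatty acid carrier of secretory cells FABP3 followed in Kashmiri with 6720.5 FPKM and was lower in Jersey with 1529 FPKM (-2.14). In Jersey the greatest value with a symbol was that of B2M, the light chain of MHC class I, with 2723 FPKM in Kashmiri and 14358 FPKM in Jersey cattle (2.40). FTH1, the ferritin heavy chain, was 2689 FPKM in Kashmiri and 12092 FPKM in Jersey cattle (2.17), and the chemokine CCL14 was 439.9 FPKM in Kashmiri and 10502 FPKM in Jersey cattle (4.58). B2M and FTH1 passed 4-fold as deposited and not after rescaling, and CCL14 was higher under both.

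Values of 0 fell on some of the most abundant genes. Of the 11642 genes, 32 were listed at 0 in Jersey and 21 in Kashmiri. With at least 100 FPKM in Kashmiri and 0 in Jersey there were 6, among them SRGN (557 FPKM), a proteoglycan of leukocyte granules, SDS (320.0 FPKM), SNORD14 (225 FPKM) and IL1RN (102 FPKM), the interleukin 1 receptor antagonist. With 0 in Kashmiri and at least 100 FPKM in Jersey there were 8. They included SPP1, the phosphoprotein osteopontin, at 3051 FPKM, and 2 unnamed Ensembl genes, ENSBTAG00000013417 at 23316 FPKM and ENSBTAG00000005005 at 7411 FPKM. SRGN was 5250.2 FPKM and SDS was 5469 FPKM in Jersey on day 90 (D90), and SPP1 was 4072 FPKM in Kashmiri on D90. The casein genes CSN1S1, CSN2 and CSN3 and PAEP, the beta-lactoglobulin, were listed at 0 in both breeds at D250. These are the main proteins of cow milk, and the paper lists them among its most highly expressed genes at D250 in both breeds. Their 0 values therefore do not show absence and can be failed estimates, and no ratio was formed from them. IL-8, the neutrophil chemokine, was 48.6 FPKM in Kashmiri and listed at 0 in Jersey. On day 15 it was 14.9 FPKM in Kashmiri and 313 FPKM in Jersey, and on D90 36.1 and 2108 FPKM. Its 0 at D250 can likewise be a failed estimate.

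Most genes of interleukin 1 and TNF signalling were higher in Jersey. Of 16 with a ratio, 11 were higher and none was lower, and the median log2 ratio was 3.85. IL1A, the cell-associated interleukin 1 alpha, was 1.5 FPKM in Kashmiri and 173 FPKM in Jersey cattle (6.85). The interleukin 1 receptor accessory chain IL1RAP was 4.7 FPKM in Kashmiri and 234 FPKM in Jersey cattle (5.64). Both TNF receptors were higher, with TNFRSF1A at 30.3 FPKM in Kashmiri and 851 FPKM in Jersey cattle (4.81) and TNFRSF1B at 79.8 FPKM in Kashmiri and 1331 FPKM in Jersey cattle (4.06). TNF itself was at 1.21 FPKM in Kashmiri and 1.99 FPKM in Jersey, and the death ligand TNFSF10 was 5.01 and 2.72 FPKM, and neither was called. The neutrophil markers moved in the same direction with a median of 4.68, and their part in these and the following inflammatory results was not tested.

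The transcription factors and inhibitors that act downstream of these receptors were for the most part higher in Jersey. In the NF-kB list, 12 of 17 genes were higher, none was lower and the median was 3.69. NFKBIA, the inhibitor that holds NF-kB in the cytoplasm, was 71.7 FPKM in Kashmiri and 3889.8 FPKM in Jersey cattle (5.76), and TNIP1, a partner of the inhibitor TNFAIP3, was 59 FPKM in Kashmiri and 1392 FPKM in Jersey cattle (4.56). BCL3, a nuclear cofactor of the family, was 16.1 FPKM in Kashmiri and 799 FPKM in Jersey cattle (5.63). The smallest ratios were those of the kinase subunits CHUK (1.24, an entry joined with another gene) and IKBKG (1.38) and of REL (1.71). Among AP-1, CREB and C/EBP genes, 12 of 17 were higher and none was lower, with a median of 2.96. The immediate early factor FOS was 27.5 FPKM in Kashmiri and 2332 FPKM in Jersey cattle (6.40), JUNB was 40.9 FPKM in Kashmiri and 1774 FPKM in Jersey cattle (5.44) and EGR1 was 11.7 FPKM in Kashmiri and 369 FPKM in Jersey cattle (4.98).

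The interleukin 6 family and STAT3 had 8 of 12 genes higher, none lower and a median of 3.62. OSM, the cytokine oncostatin M, was 9.41 FPKM in Kashmiri and 1145 FPKM in Jersey cattle (6.93), whereas its receptor chain OSMR was 3.66 and 1.94 FPKM and not called. SOCS3, a feedback inhibitor of STAT3 signalling, was 9.79 FPKM in Kashmiri and 874 FPKM in Jersey cattle (6.48). IL6 itself was low, at 0.107 FPKM in Kashmiri and 7.71 FPKM in Jersey cattle (6.18). Of 18 Toll-like receptors and adaptors, 5 were higher and none was lower (median 1.65). They were MYD88, the shared adaptor, with 50.1 FPKM in Kashmiri and 969 FPKM in Jersey cattle (4.27), TLR2 (15.7 and 299.9 FPKM), which senses bacterial lipoproteins, TLR4 (20.7 and 337 FPKM), which senses lipopolysaccharide, CD14 and IRAK2.

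**Figure D4:**
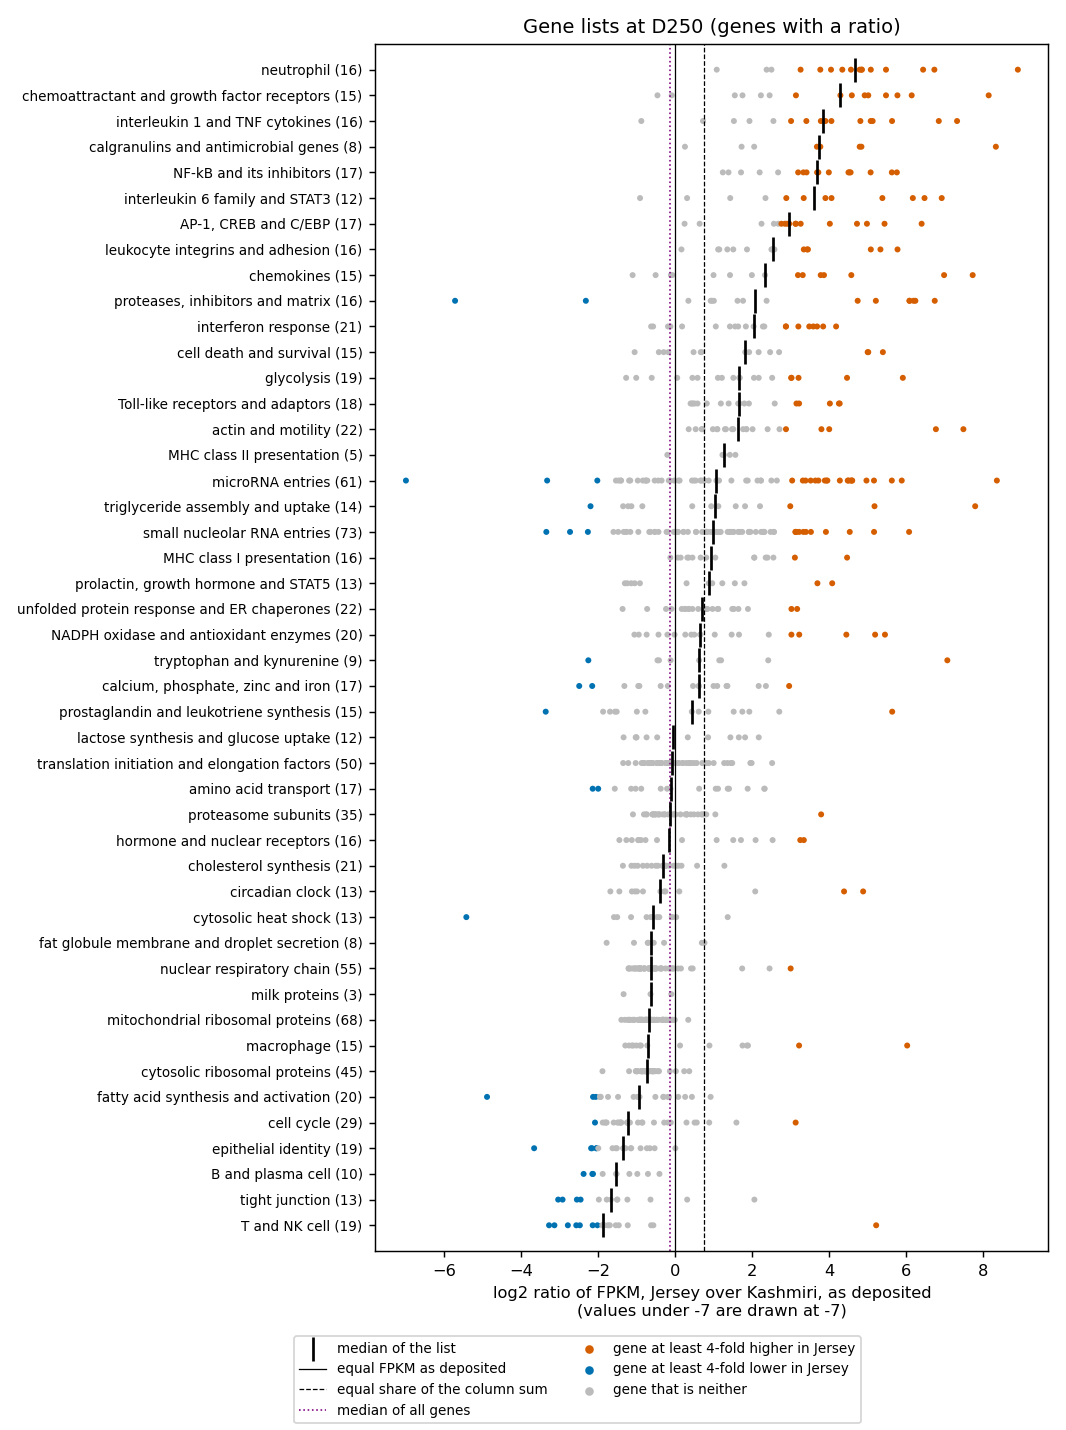
Log2 ratio of FPKM, Jersey over Kashmiri, of the genes of each list with at least 3 genes with a ratio at D250, ordered by the list's median (black bar), with the number of genes in parentheses. Orange genes were higher and blue genes lower by the 4-fold rule, the dotted line is the median of all genes (-0.13), and neutrophil markers stand at the top and T and NK cell markers at the bottom.

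Chemokines and the receptors that guide leukocytes held higher genes and no lower ones. Of 15 chemokine entries 7 were higher and none was lower (median 2.33). CCL20, which attracts lymphocytes and dendritic cells, was 0.326 FPKM in Kashmiri and 69.4 FPKM in Jersey cattle (7.73). It was 5.73 with 1 FPKM added and still called. CCL2, the monocyte chemoattractant, was 78.1 FPKM in Kashmiri and 777 FPKM in Jersey cattle (3.31). CXCL10 and CXCL11, interferon-induced chemokines that the table joins, were 25.5 and 11.9 FPKM, and CCL28, a chemokine of secretory epithelium, was 15.4 and 10.8 FPKM, with neither called. Among chemoattractant and growth factor receptors, 9 of 15 were higher and none was lower (median 4.29). CSF3R, the granulocyte colony-stimulating factor receptor, was 57.2 FPKM in Kashmiri and 2549 FPKM in Jersey cattle (5.48), in an entry joined with an unnamed gene and also held by the neutrophil list. CXCR4, the receptor of CXCL12, was 332 FPKM in Kashmiri and 971 FPKM in Jersey cattle (1.55) and CCR7, which guides cells to lymph nodes, was 30 FPKM in Kashmiri and 21.8 FPKM in Jersey cattle (-0.46), and neither was called.

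Effector genes of leukocytes held higher genes as well. Of 8 measured calgranulins and antimicrobial genes, 5 were higher and none was lower (median 3.73), and 3 of those 5 are also neutrophil markers. S100A8 was 106 FPKM in Kashmiri and 3034 FPKM in Jersey cattle (4.84) and its partner S100A9 was 107 FPKM in Kashmiri and 2965 FPKM in Jersey cattle (4.79). LYZ, lysozyme, was 139.9 FPKM in Kashmiri and 462 FPKM in Jersey cattle (1.72) and not called. In the list of NADPH oxidase and antioxidant enzymes 5 of 20 were higher and none was lower, with a median of 0.65 as deposited and -0.10 rescaled. The oxidase subunits NCF1, with 27.3 FPKM in Kashmiri and 1002 FPKM in Jersey cattle (5.20), and CYBA, with 109 FPKM in Kashmiri and 1020.1 FPKM in Jersey cattle (3.22), were among them, while the antioxidant enzymes PRDX2 (-0.95) and CAT (-0.74) were not called.

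Of 16 leukocyte integrins and adhesion genes, 6 were higher and none was lower (median 2.53). The tetraspanin CD53 was 121 FPKM in Kashmiri and 1298 FPKM in Jersey cattle (3.43). Both LSP1 (68.6 and 149 FPKM), a protein of leukocyte actin, and the integrin ITGAL (17.6 and 38.9 FPKM) were not called. Among actin and motility genes 5 of 22 were higher and none was lower (median 1.64), including FMNL1, a formin of blood cells, with 25.8 FPKM in Kashmiri and 414 FPKM in Jersey cattle (16-fold). ACTB, beta-actin, often used as a reference gene, was 1012 FPKM in Kashmiri and 2816 FPKM in Jersey cattle (1.48).

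Genes of antigen presentation were called in the class I list only, beside 9.01% of all genes higher and 4.35% lower. Of 16 genes of MHC class I presentation, 2 were higher (JSP.1 and TAPBPL) and none was lower, with a median of 0.93 as deposited and 0.17 rescaled. JSP.1, a bovine class I heavy chain, was 2.89 FPKM in Kashmiri and 63.9 FPKM in Jersey cattle (4.47), and reads of such related genes can be shared. None of 5 measured class II genes was called (median 1.26), and CD74, the invariant chain, was 1319.9 FPKM in Kashmiri and 3165 FPKM in Jersey cattle (1.26). Interferon response genes had 8 of 21 entries higher and none lower (median 2.04). ISG20, an antiviral exonuclease, was 56.7 FPKM in Kashmiri and 1029 FPKM in Jersey cattle (4.18) and the transcription factor IRF1 was 39.4 FPKM in Kashmiri and 474 FPKM in Jersey cattle (3.59). The interferon-induced genes RSAD2 (-0.63) and IFI44L (-0.57) had log2 ratios below 0 and were not called.

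Genes that remodel the matrix and activate plasminogen were called in both directions. Of 16 genes, 7 were higher and 2 were lower (median 2.07). PLAU, the urokinase that activates plasminogen, was 25.4 FPKM in Kashmiri and 1921 FPKM in Jersey cattle (6.24), and its receptor PLAUR was 108 FPKM in Kashmiri and 4002 FPKM in Jersey cattle (5.22). LAMB3, a laminin chain, was 0.563 FPKM in Kashmiri and 60.5 FPKM in Jersey cattle (6.75). The lower genes were DCN, the proteoglycan decorin, with 2.28 FPKM in Kashmiri and 0.0433 FPKM in Jersey cattle (-1.65 with 1 FPKM added, no longer called), and TIMP3, an inhibitor of metalloproteinases, with 22.2 FPKM in Kashmiri and 4.43 FPKM in Jersey cattle (-2.32). CTSB, cathepsin B, was 1006 FPKM in Kashmiri and 2019 FPKM in Jersey cattle (1.00) and not called.

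In the synthesis of prostaglandins and leukotrienes, 1 of 15 genes was higher and 1 was lower, beside 9.01% and 4.35% of all genes. PTGS2, the inducible cyclooxygenase, was 0.734 FPKM in Kashmiri and 36.6 FPKM in Jersey cattle (5.64), and ALOX15, the 15-lipoxygenase, was 47.8 FPKM in Kashmiri and 4.63 FPKM in Jersey cattle (-3.37). Their list had a median of 0.43 as deposited and -0.32 rescaled. Of 15 cell death and survival entries 3 were higher and none was lower (median 1.82). They were the survival gene BCL2A1, with 33.2 FPKM in Kashmiri and 1401 FPKM in Jersey cattle (5.40), the death receptor FAS, with 5.61 FPKM in Kashmiri and 182 FPKM in Jersey cattle (5.02), and the entry that joins the inhibitors BIRC2 and BIRC3 (37.8 and 1212 FPKM). For BCL2A1 the paper gives a larger log2 fold change at D250, and the reason for the difference is not known.

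Genes of glycolysis and of its regulation by hypoxia had 5 of 19 higher and none lower (median 1.66). VEGFA, the vascular growth factor placed in this list as a target of HIF1A, was 10.8 FPKM in Kashmiri and 655 FPKM in Jersey cattle (5.92), and HIF1A itself was 35.6 FPKM in Kashmiri and 328 FPKM in Jersey cattle (3.21). SLC16A3, a lactate exporter, was 14.9 FPKM in Kashmiri and 329 FPKM in Jersey cattle (4.47), and LDHA, the lactate dehydrogenase A chain, was 124 FPKM in Kashmiri and 1002 FPKM in Jersey cattle (3.01). ALDOA, with 632 FPKM in Kashmiri and 2001 FPKM in Jersey cattle (1.66), and the muscle-type phosphofructokinase PFKM (-1.28) were not called. Of 13 clock genes 2 were higher (median -0.39), NFIL3 and BHLHE40, beside 9.01% of all genes. NFIL3 was 38.9 FPKM in Kashmiri and 1149 FPKM in Jersey cattle (4.88), and BHLHE40 was 34.5 and 723 FPKM (4.39). Both are transcriptional repressors that also act in immune cells. The core clock gene PER1 was 12.9 and 4.71 FPKM and RORA was 7.45 and 2.32 FPKM, and neither was called.

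The calls among receptor and tryptophan genes stand beside 9.01% of all genes higher and 4.35% lower. Of 16 hormone and nuclear receptor genes 2 were higher and none was lower (median -0.15). They were PPARD, with 17 FPKM in Kashmiri and 172 FPKM in Jersey cattle (3.34), and the retinoic acid receptor alpha RARA, with 12.9 FPKM in Kashmiri and 123 FPKM in Jersey cattle (3.25), whereas RARB, which was not on this list, was lower. ESR1, the estrogen receptor, was 5.74 and 2.63 FPKM. In tryptophan and kynurenine metabolism, 1 of 9 genes was higher and 1 was lower (median 0.62 as deposited and -0.13 rescaled). KMO, the kynurenine monooxygenase, was 0.722 FPKM in Kashmiri and 97.3 FPKM in Jersey cattle (7.07) and IDO2, which opens the indole ring of tryptophan, was 2.72 FPKM in Kashmiri and 0.569 FPKM in Jersey cattle (-2.26, and -1.25 with 1 FPKM added).

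Milk secretion genes were mostly uncalled, with values that leaned to Kashmiri. Of the milk proteins only LALBA, LPO and PIGR reached 1 FPKM, and none of the 3 was called (median log2 ratio -0.64). The caseins and beta-lactoglobulin, listed at 0, are not covered by this. For CSN1S1, CSN2 and CSN3 the paper gives greater FPKM in Jersey at D250, and for beta-lactoglobulin and LALBA greater FPKM in Kashmiri. The LALBA values in the paper are greater than the deposited ones in both breeds. LPO, lactoperoxidase, was 61.6 FPKM in Kashmiri and 39.5 FPKM in Jersey cattle (-0.64). In fatty acid synthesis and activation 3 of 20 genes were lower and none was higher (median -0.95). The lower genes were FABP3, ACACA, the enzyme that makes malonyl-CoA, with 54.2 FPKM in Kashmiri and 13 FPKM in Jersey cattle (-2.06, and -1.98 with 1 FPKM added), and ME1, the malic enzyme, with 1.41 FPKM in Kashmiri and 0.0473 FPKM in Jersey cattle (-1.20 with 1 FPKM added). FABP3 alone of them was still called with 1 FPKM added. FASN, the fatty acid synthase, was 639 FPKM in Kashmiri and 228 FPKM in Jersey cattle (-1.49) and ACSS2, which activates acetate, the main carbon source of milk fat in cows, was 376 FPKM in Kashmiri and 97.2 FPKM in Jersey cattle (3.86-fold less). The epithelial markers had a median of -1.36, and their part in these results was not tested.

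Triglyceride genes did not share 1 direction. Of 14 genes 3 were higher and 1 was lower (median 1.03), beside 9.01% and 4.35% of all genes. Besides G0S2, the higher genes were LPIN2, a phosphatidate phosphatase, with 13.6 FPKM in Kashmiri and 108 FPKM in Jersey cattle (2.99), and the entry that joins DGAT2 with UVRAG (12.6 and 456 FPKM). AGPAT2, an acyltransferase, was 22.5 FPKM in Kashmiri and 4.88 FPKM in Jersey cattle (-2.20, and not called with 1 FPKM added), and GPAM, which takes the first step of glycerolipid synthesis, was 36.1 FPKM in Kashmiri and 14.1 FPKM in Jersey cattle (-1.35). None of 8 genes of the fat globule membrane was called (median -0.63), with XDH, xanthine dehydrogenase, at 1604 FPKM in Kashmiri and 986 FPKM in Jersey cattle (-0.70) and MFGE8, lactadherin, at 388 FPKM in Kashmiri and 113 FPKM in Jersey cattle (-1.78). None of 21 cholesterol synthesis genes was called, and their log2 ratios ran from -1.36 to 1.28 (median -0.32).

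Lactose synthesis and glucose uptake had none of 12 genes called (median -0.07). SLC2A1, the main glucose transporter of the gland, was 24.6 FPKM in Kashmiri and 111 FPKM in Jersey cattle (2.17), which passed 4-fold as deposited only. Over all genes 9.01% were higher and 4.35% were lower. In the list of prolactin, growth hormone and STAT5, 2 of 13 genes were higher and none was lower (median 0.87). They were JAK2, the kinase bound to both hormone receptors, with 5.05 FPKM in Kashmiri and 85.4 FPKM in Jersey cattle (4.08), and the adaptor GRB2, with 70.1 FPKM in Kashmiri and 909 FPKM in Jersey cattle (3.70). Their prolactin receptor PRLR, with 1.08 FPKM in Kashmiri and 0.435 FPKM in Jersey cattle (-1.31), and growth hormone receptor GHR, with 1.57 FPKM in Kashmiri and 0.659 FPKM in Jersey cattle (-1.25), were low and not called.

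The calls among amino acid transporters and mineral genes stand beside 9.01% of all genes higher and 4.35% lower. Of 17 amino acid transporters 2 were lower and none was higher (median -0.12). SLC7A8 was 4.84 FPKM in Kashmiri and 1.09 FPKM in Jersey cattle (-2.15, and -1.48 with 1 FPKM added). SLC6A14 was 1.11 FPKM in Kashmiri and 0.276 FPKM in Jersey cattle (4.01-fold less). SLC6A14 was -0.72 with 1 FPKM added, and neither was then called. Among genes of calcium, phosphate, zinc and iron 1 of 17 was higher and 2 were lower (median 0.61 as deposited and -0.15 rescaled). SLC11A1, the phagosomal metal transporter NRAMP1, was 40 FPKM in Kashmiri and 312 FPKM in Jersey cattle (2.96). The phosphate transporters SLC34A2, with 23.1 FPKM in Kashmiri and 5.18 FPKM in Jersey cattle (-2.16), and SLC20A2, with 5.84 FPKM in Kashmiri and 1.04 FPKM in Jersey cattle (-2.50), were lower. They were -1.96 and -1.75 with 1 FPKM added and then not called.

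Tight junction genes were lower in Jersey where they were called. Of 13 genes 4 were lower and none was higher, and the median was -1.67. OCLN, occludin, was 12.3 FPKM in Kashmiri and 1.49 FPKM in Jersey cattle (-3.04), and CLDN4, the claudin with the greatest value, was 73.5 FPKM in Kashmiri and 9.65 FPKM in Jersey cattle (-2.93). MARVELD2, tricellulin, was 2.82 FPKM in Kashmiri and 0.48 FPKM in Jersey cattle (-2.56, and -1.37 with 1 FPKM added) and CLDN1 was the other lower gene, at 11.1 FPKM in Kashmiri and 2.01 FPKM in Jersey cattle (-2.46). CLDN3, at 41.7 FPKM in Kashmiri and 14.7 FPKM in Jersey cattle (-1.50), and CLDN7, at 38.2 FPKM in Kashmiri and 11.1 FPKM in Jersey cattle (-1.78), were not called. The median of epithelial identity genes lay close by at -1.36.

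Genes of protein synthesis and respiration were seldom called, beside 9.01% of all genes higher and 4.35% lower. None of 45 cytosolic ribosomal protein genes was called, with a median of -0.74 and a range from -1.89 to 0.36, and RPS2 was 3469 FPKM in Kashmiri and 1744 FPKM in Jersey cattle (-0.99). None of 68 mitochondrial ribosomal protein genes was called (median -0.68, from -1.40 to 0.34). Of 55 respiratory chain genes of the nucleus 1 entry, which joins genes of different function, was higher (median -0.63, from -1.21 to 3.00). Of 35 proteasome genes 1 was higher, PSMA3 with 11.8 FPKM in Kashmiri and 164 FPKM in Jersey cattle (3.79), with a median of -0.13 and a range from -1.10 to 3.79. None of 50 translation factor genes was called (median -0.08, from -1.35 to 2.52). Of the mitochondrially encoded genes only the entry that joins ND1 and ND2 had a ratio, at 1911 FPKM in Kashmiri and 2421 FPKM in Jersey cattle, and a joined entry with COX1, COX3 and ATP6 was listed at 0 in Kashmiri and at 11397 FPKM in Jersey.

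The calls among stress and proliferation genes stand beside 9.01% of all genes higher and 4.35% lower. Of 22 genes of the unfolded protein response 2 were higher and none was lower (median 0.70 as deposited and -0.05 rescaled). DDIT3, the stress factor CHOP, was 27.8 FPKM in Kashmiri and 226 FPKM in Jersey cattle (3.02), and EDEM1, which directs misfolded glycoproteins to degradation, was 21.1 FPKM in Kashmiri and 189.7 FPKM in Jersey cattle (3.17). Of 13 heat shock genes 1 was lower, and the median was -0.59. The small heat shock protein HSPB8 was 9.37 FPKM in Kashmiri and 0.217 FPKM in Jersey cattle (-5.43). It was -3.09 with 1 FPKM added and still called. In the cell cycle list 1 of 29 genes was higher, the inhibitor CDKN1A with 41.8 FPKM in Kashmiri and 366 FPKM in Jersey cattle (3.13), and 1 was lower, the topoisomerase TOP2A with 2.97 FPKM in Kashmiri and 0.699 FPKM in Jersey cattle (-2.09, and -1.22 with 1 FPKM added). The median of that list was -1.22.

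Entries for microRNAs and small nucleolar RNAs were measured from polyadenylated RNA, and some of them share an entry with a protein-coding gene. Of 61 microRNA entries with a ratio 20 were higher and 3 were lower (median 1.07). The entry bta-mir-371 was 0.0648 FPKM in Kashmiri and 21.3 FPKM in Jersey cattle, and the joined entry of bta-mir-132 and bta-mir-212 was 0.0653 FPKM in Kashmiri and 3.87 FPKM in Jersey cattle. The entry bta-mir-2284l was 704 FPKM in Kashmiri and 0.0105 FPKM in Jersey cattle. Values this near to 0 are no basis for a fold change. With 1 FPKM added 14 of these entries were higher and 2 were lower. Of 73 small nucleolar RNA entries 11 were higher and 3 were lower (median 0.98). With 1 FPKM added 7 of the small nucleolar RNA entries were higher and 1 was lower. By the main rule 9.01% of all genes were higher and 4.35% were lower.

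The difference between the breeds at D250 was set beside that on the earlier days, for which the table held separate values, each scaled to its own sums. Jersey was labelled with 2 samples on D90 and every other group with 3. By the same rule, 1062 genes were higher in Jersey on D90 (9.53%) and 864 were lower (7.75%). On day 15 (D15) 1132 genes were higher (10.1%) and 328 were lower (2.94%). Of the 1044 genes higher at D250, 623 were higher on D90 as well, which is 59.7% of the D250 genes and 58.7% of the D90 genes. On D15, 460 of them were higher, 44.1% of the D250 and 40.6% of the D15 genes. On all 3 days 391 genes were higher, and 352 were called higher at D250 and on neither earlier day. These counts include genes that could not be called on an earlier day, since of the 1044 genes 929 had a ratio on D90 and 853 on D15. Of the 842 with a ratio on both earlier days, 224 were higher on neither. Of the 504 genes lower at D250, 239 were lower on D90, or 47.4% of the D250 and 27.7% of the D90 genes. On D15 the number was 75, and 18 of the genes lower at D250 were higher in Jersey on D15. Of the 504 genes, 360 had a ratio on D90 and 399 on D15. The study's methods describe 3 cows per breed, each milked on all 3 days, so the days would share cows. The labels do not name the cows, and their lactation numbers differ between days.

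The medians of several lists differed by day, and their order over the days depended in part on the scaling. Scaling both breeds to the same sum adds 0.42 to each log2 ratio on D15 and 0.36 on D90, whereas it takes 0.76 away at D250. The median log2 ratio of the neutrophil list on D15, D90 and D250 was 3.37, 4.11 and 4.68 as deposited and 3.79, 4.47 and 3.93 rescaled, so that D250 had the greatest value as deposited and D90 after rescaling. That of the NF-kB list was 0.88, 2.59 and 3.69 as deposited and 1.30, 2.95 and 2.93 rescaled, nearly equal on the later days after rescaling. For the interleukin 6 family and STAT3 it was 0.70, 2.03 and 3.62 as deposited and 1.12, 2.39 and 2.87 rescaled, the greatest at D250 under both. For macrophage markers the order was the opposite under both scalings, with 3.57, 1.71 and -0.72 as deposited and 3.99, 2.07 and -1.48 rescaled. The median of T and NK cell markers was -0.43, -3.56 and -1.87 as deposited and -0.01, -3.20 and -2.63 rescaled, with the smallest value on D90. That of cytosolic ribosomal proteins was -1.08, -2.01 and -0.74 as deposited and -0.66, -1.65 and -1.49 rescaled, so that D15 lay below D250 as deposited and above it after rescaling. These medians cover the genes with a ratio at D250 and on the day given, and the differences between days were not tested.

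IL1B in Jersey was 243 FPKM on D15, 1905 FPKM on D90 and 3290.1 FPKM at D250, while in Kashmiri it was 16.2, 16.1 and 20.5 FPKM. S100A8 in Jersey was 1652, 1276 and 3034 FPKM, and in Kashmiri 36.4, 74.3 and 106 FPKM. Both genes were thus greater in Jersey on each of the 3 days. ELF3 was 12.3, 6.36 and 10.6 FPKM in Kashmiri and 23.9, 1.85 and 2.33 FPKM in Jersey, so that Jersey had the greater value on D15 only. CD3E was 146, 659 and 135 FPKM in Kashmiri and 65.5, 31.7 and 19.5 FPKM in Jersey.

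**Figure D5:**
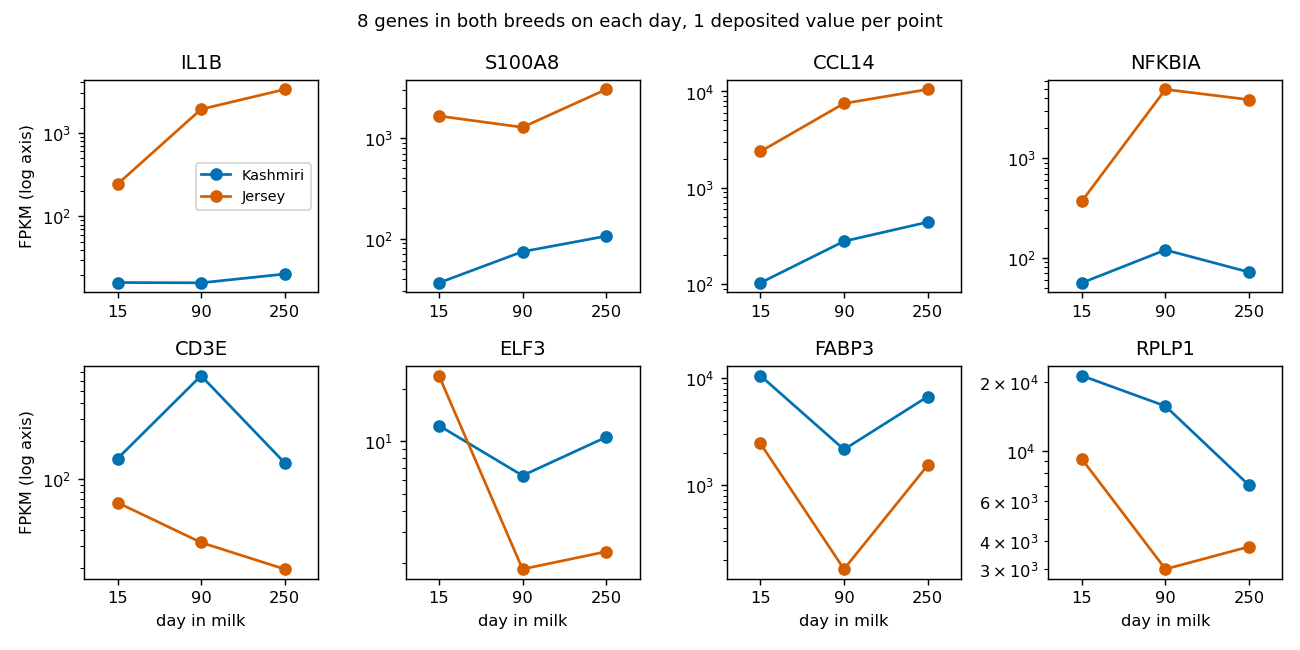
FPKM (log axes, a separate scale per panel) of 8 genes by day in milk in Kashmiri (blue) and Jersey (orange), 1 deposited value per breed and day with no error available. IL1B, S100A8, CCL14 and NFKBIA lie above in Jersey on all 3 days, CD3E, FABP3 and RPLP1 lie above in Kashmiri on all 3, and the lines of ELF3 cross.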

How the data were processed

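RNA of cells captured from milk as epithelial cells was compared between 3 Jersey and 3 Kashmiri samples at D250. Per the study's methods, the authors used Trimmomatic on the reads and Bowtie (version 2 in the submitters' processing notes) with TopHat for alignment. Both breeds were aligned to UMD3.1, a cattle assembly, and Cufflinks and Cuffdiff gave the deposited FPKM, 1 value per gene for each of 6 groups of breed and day. The values carry no replicates, so reads per value and the precision are unknown, and no test was made.

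Of 61264 entries, 25121 had a name. Where entries shared a name, that of the highest mean over the 6 groups was kept. Entries that join several names were found by any of those names and counted once per list. Genes needed at least 1 FPKM in either breed. The call required a log2 ratio of at least 2 in size, both as deposited and after scaling to the same sum over all entries. The code that makes the calls was checked on simulated data. There the scaling came from genes set as unchanged, so scaling to the sum over all entries was not checked.

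The genes named were the 15 largest and 15 smallest ratios among genes of at least 10 FPKM in one breed and 1 FPKM in the other, the 10 most abundant genes of each breed, genes of at least 100 FPKM listed at 0 in the other, and from each of 41 lists and 7 symbol patterns the 3 most abundant and the 3 most extreme in each direction. KRT18 was added as the capture antigen, and CLDN1, IL-8, IRAK2 and RPS2 were chosen after their values were seen. Some genes that this rule names are not reported here. The members and lists were chosen with earlier results of these data known. Alternatives were either scaling alone, scaling by the upper quartile, limits of 10 and 0.1 FPKM, a pseudocount of 1 FPKM and all named entries. Scaling to entries above 0 in both breeds and leaving out joined entries were added after seeing the data. Versions were Python 3.11.15, pandas 2.3.3, numpy 2.4.6 and matplotlib 3.10.9.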

Additional observations from a re-analysis of the deposited data

How the results depend on the processing

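The genes called higher numbered 1044, and with FPKM as deposited alone the number was 1607. It ranged from 767 to 1268 under the other alternatives run, all within 1.5 times. The genes called lower numbered 504 and moved more, with 1552 under scaling to the FPKM sum alone, 1136 under the upper quartile, 1447 under scaling to the entries above 0 in both breeds, 132 with a limit of 10 FPKM, 960 with a limit of 0.1 FPKM and 159 with a pseudocount of 1 FPKM. The scalings alone drop the second condition of the call and the pseudocount shrinks ratios of genes near 1 FPKM. The median log2 ratio of all genes, -0.13 as deposited, was -0.88 scaled to the FPKM sum and -0.83 scaled to the entries above 0 in both breeds.

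A log2 value was taken as kept when it had the same sign and moved by less than 0.58. Under scaling to the FPKM sum none of 47 list medians was kept, with 41 moved further and 6 changing sign. Scaled to entries above 0 in both breeds none was kept either, with 42 moved further and 5 changing sign. Of 153 single genes none was kept under these 2 scalings. Medians of these lists changed sign under scaling to the FPKM sum: NADPH oxidase and antioxidant enzymes (-0.10), prostaglandin and leukotriene synthesis (-0.32), unfolded protein response (-0.05), calcium, phosphate, zinc and iron (-0.15), tryptophan and kynurenine (-0.13) and the joined ND1 and ND2 entry, which is also the mitochondrially encoded median (-0.41). Under the upper quartile the prostaglandin median was -0.12 and the ND1 value -0.20. Scaled to entries above 0 in both breeds, the values were -0.06 for NADPH oxidase, -0.28 for prostaglandins, -0.10 for calcium, phosphate, zinc and iron, -0.09 for tryptophan and kynurenine and -0.37 for ND1. Among the single genes named, TNF also changed sign, to -0.03 scaled to the FPKM sum. With a pseudocount of 1 FPKM none of 47 list medians changed sign and 3 moved by more than 0.58, to 1.60 for chemokines, 1.01 for cell death and survival and -0.85 for B and plasma cells. The call was lost for 13 of 31 genes called lower that are given with values and for 1 of 72 called higher, and the list of epithelial identity then had 1 lower gene in place of 5.

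No paired analysis was possible because the table held 1 value per breed and day, and for the same reason leaving out each sample was not run. The depth behind each value is unknown. The 53 genes listed at 0 in 1 breed have no ratio, and several of them are abundant.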
